A study of Homo sapiens with 4 samples.

Results

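The 10 genes described here encode the core of the Notch pathway: the ligands JAG1, JAG2 and DLL1, the receptors NOTCH1, NOTCH2 and NOTCH3, the DNA-binding factor RBPJ, and the target genes HES1, HEY1 and NRARP. They were taken from a list of gene names, not by a threshold on these values, and all 10 were found among the 18377 genes that the platform annotation names from a probe with exactly 1 symbol. RNA came from Huh7, an established human hepatocellular carcinoma line, sorted by flow cytometry in 2 ways. One sort gave CD133-positive and CD133-negative cells, by the surface protein that PROM1 encodes, and the other gave ALDH-positive and ALDH-negative cells, by aldehyde dehydrogenase. The series frames the comparison as cancer stem cells against the remaining tumour cells. All 4 fractions are the same cultured line, with no treatment named in the labels and with the purity of the gates not given in the sources used here.

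Each fraction was measured on 1 Affymetrix array, 4 arrays in all. No fraction has a replicate, so no difference below has an error or a p-value, and the single arrays limit how precise any value can be. Values are log2 expression after robust multi-array averaging (RMA), and a difference is the log2 value of the marker-positive fraction minus that of the marker-negative fraction of the same sort. A level is compared only between arrays for the same gene, because probes of different genes respond differently. A probe counted as above the floor in a sort where its brighter array reached 4.98, the median of all values. In sorted bulk RNA, a lower value from fewer expressing cells cannot be told apart from less RNA per cell.

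Notch receptors are single-pass membrane proteins that a ligand on a neighbouring cell activates. Pulling by the ligand exposes the receptor to ADAM proteases and then to gamma-secretase, which frees the intracellular domain. That domain enters the nucleus, binds RBPJ together with a Mastermind coactivator and turns RBPJ from a repressor into an activator of targets such as the HES and HEY repressor genes. In the liver, JAG1 and NOTCH2 are known for bile duct formation, and Notch activity favours biliary over hepatocyte identity.

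Promoter sequence of the targets HES1 and NRARP is shown because RBPJ acts by binding DNA at its targets. For RBPJ itself the window shown is that of the only listed start, of 5, whose window held TGGGAA. Each window runs from 250 bases before to 50 bases after a transcript start, 5′ to 3′ on the strand of the gene, from RefSeq on GRCh38.p14. Capitals mark the RBPJ core motif TGGGAA, or its reverse complement TTCCCA. The table held promoters for 8 of the 10 genes, without HEY1 and DLL1.
HES1, chr3:194135898-194136197, plus strand: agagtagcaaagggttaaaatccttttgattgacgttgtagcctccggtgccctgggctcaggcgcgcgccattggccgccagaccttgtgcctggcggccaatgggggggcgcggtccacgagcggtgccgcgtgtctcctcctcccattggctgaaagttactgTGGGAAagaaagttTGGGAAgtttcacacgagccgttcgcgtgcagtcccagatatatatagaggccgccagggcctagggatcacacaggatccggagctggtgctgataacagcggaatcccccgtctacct
NRARP, chr9:137302222-137302521, minus strand: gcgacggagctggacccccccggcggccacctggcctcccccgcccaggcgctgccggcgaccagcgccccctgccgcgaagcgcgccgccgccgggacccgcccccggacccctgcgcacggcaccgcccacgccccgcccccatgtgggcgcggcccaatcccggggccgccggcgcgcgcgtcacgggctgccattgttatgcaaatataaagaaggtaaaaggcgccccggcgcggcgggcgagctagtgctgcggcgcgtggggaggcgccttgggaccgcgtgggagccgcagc
RBPJ, the second of 5 listed starts, chr4:26319496-26319795, plus strand: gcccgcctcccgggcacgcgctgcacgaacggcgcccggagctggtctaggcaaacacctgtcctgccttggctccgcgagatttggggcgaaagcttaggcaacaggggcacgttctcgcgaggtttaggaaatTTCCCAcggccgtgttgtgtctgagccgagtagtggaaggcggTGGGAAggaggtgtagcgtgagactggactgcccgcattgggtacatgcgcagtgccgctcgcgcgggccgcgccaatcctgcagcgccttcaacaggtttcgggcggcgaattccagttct

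The HES1 window held TGGGAA at 2 places on the strand of the gene, with first bases 84 and 70 bases before the start. The first of these also read as the longer GTGGGAA, which contains TGGGAA. The NRARP window held no TGGGAA on either strand. The RBPJ window held GTGGGAA at 2 places, once on each strand, with the matched stretches beginning 115 and 73 bases before the start. None of the windows of the other RBPJ starts, the receptors and the jagged ligands held either form. Among 35116 promoter windows of the same length, 24.0% held TGGGAA on either strand and 6.25% held GTGGGAA. The N-box CACNAG, a letter pattern linked to HES proteins, occurred at 4 places in the HES1 window and at 1 in that of NRARP. It also occurred at 2 places for NOTCH1, at 1 each for NOTCH2 and NOTCH3, and at 2 for the first RBPJ start. The windows of JAG1, JAG2 and the other RBPJ starts held none, and 38.0% of all windows held it. The E-box CACGTG occurred in none of the windows of the 8 genes and in 7.26% of all windows. These matches describe letters and show no binding.

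Before the results, the arrays were set against their labels. PROM1 differed by 3.68 between the CD133 fractions and by -1.28 between the ALDH fractions, so its transcript followed the label of the CD133 sort. Between the ALDH fractions ALDH1A3 stood at 5.13 in positive against 4.69 in negative cells, a difference of 0.45, with the lower value below the floor. It was also higher in CD133-positive cells, by 0.39, so it did not single out the ALDH sort. ALDH2 and ALDH1A1 were nearly level between the ALDH fractions, at 0.10 and 0.04. Transcripts thus gave no clear check of the ALDH labels. Of 11 measured hepatocyte markers 9 were above the floor on at least 1 array, with ALB between 10.93 and 11.71 and AFP between 11.56 and 11.86. Of the 11 endothelial markers 7 lay below the floor on all 4 arrays. PECAM1 and CDH5 reached it on the ALDH-negative array only. In the ALDH sort they differed by -0.93 and -0.67, or by -0.48 and -0.38 against the floor. ROBO4 reached it on the CD133-negative array only, at 4.99. CLDN5, which epithelia can also express, was above it on all 4 arrays and differed by 0.47 and 0.52 in the CD133 and ALDH sorts. Of 11 measured leukocyte markers 6 lay below the floor on all 4 arrays, the pan-leukocyte marker PTPRC among them at 2.45 to 2.64. The other 5 (LYZ, CD68, CD14, NKG7 and TYROBP) were above it on all 4 arrays. In the CD133 and ALDH sorts LYZ differed by -0.69 and 1.33, and CD68 the other way, by 0.07 and -0.77. CD14 differed by -0.29 and 0.42, NKG7 by -0.13 and 0.40, and TYROBP by -0.18 and 0.05. Of 12 fibroblast and stellate markers 6 lay below the floor on all 4 arrays. Among the others PDGFRA differed most, by -0.75 and 0.78 in the CD133 and ALDH sorts, or by -0.45 and 0.57 against the floor. The mean of the 15 measured intestinal epithelium genes was 6.70 against 5.48 in the CD133 sort and 6.15 against 7.03 in the ALDH sort (positive against negative). The mean of the 20 cell division genes was 7.91 against 7.95 and 7.78 against 7.28, and that of the 10 Notch genes 6.84 against 6.75 and 6.92 against 6.88. The part of these genes in the Notch values was not tested.

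None of the 10 Notch genes reached a 2-fold difference in either sort. Of genes above the floor, 0.88% did so between the CD133 fractions and 1.57% between the ALDH fractions, so a count of 0 among 10 is near that background. At 1.5-fold, 0 of the Notch genes were called in the CD133 sort, against 4.63% of the genes above the floor. In the ALDH sort HEY1 and RBPJ passed 1.5-fold and both were lower in ALDH-positive cells, against 10.8% of the genes above the floor in either direction and 6.6% lower. For HEY1 this held when the pair was centred, after a second quantile normalization and after loess. HEY1 has 1 probe, above the floor on all 4 arrays, so other probe choices and raising values to the floor could not change it. RBPJ missed 1.5-fold with the mean of its probes, after a second quantile normalization and after loess, and turned to 0.59 on its other probe. By direction alone, 7 of 10 were higher in CD133-positive cells and 7 of 10 in ALDH-positive cells, where 49% and 53.8% of all 18377 genes were. The median over the 10 genes was 0.10 for the CD133 and 0.20 for the ALDH sort, beside -0.01 and 0.03 over all genes. Over the 9 genes above the floor, DLL1 left out, the medians were 0.10 and 0.23, beside -0.04 and -0.01. With the floor at the 75th percentile, the ALDH median over the 6 Notch genes above it turned to -0.049, beside -0.051 over the genes above that floor.

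**Figure D1:**
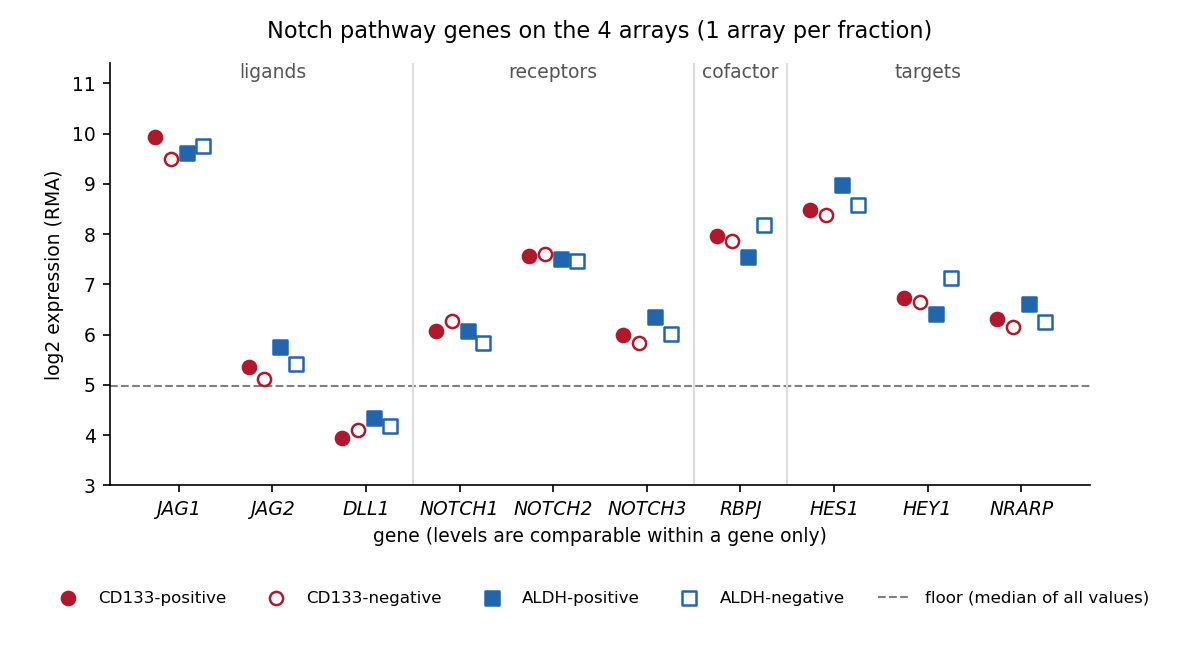
Log2 expression (RMA) of the 10 Notch genes, ordered by role, with 1 point per array; circles are the CD133 sort, squares the ALDH sort, filled symbols the marker-positive fraction, and the dashed line is the floor at 4.98. HEY1 and RBPJ have their highest value in ALDH-negative and their lowest in ALDH-positive cells, and DLL1 lies below the floor on all 4 arrays.

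Among the ligands, JAG1, the jagged ligand known from bile duct development, gave the largest difference of any Notch gene in the CD133 sort. Its log2 level was 9.94 in CD133-positive against 9.49 in CD133-negative cells and 9.61 in ALDH-positive against 9.75 in ALDH-negative cells. The CD133-positive array was the highest and the CD133-negative array the lowest of the 4, with both ALDH arrays between them. The difference was 0.45 in the CD133 sort, a 1.36-fold higher level in CD133-positive cells, and 10.2% of genes above the floor differed by as much in either direction. In the ALDH sort JAG1 differed by -0.14, which 68.9% of genes matched or exceeded.

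JAG2, the second jagged ligand, stood at 5.35 in CD133-positive against 5.11 in CD133-negative cells and 5.75 in ALDH-positive against 5.42 in ALDH-negative cells, close above the floor throughout. It was higher in the positive fraction of each sort, by 0.24 and 0.33. Both ALDH arrays lay above both CD133 arrays. DLL1, a delta-like ligand, stood at 3.95, 4.11, 4.34 and 4.17 in the same order. All 4 values lay below the floor, so its differences of -0.15 and 0.17 are those of a dim probe.

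Among the receptors, NOTCH2 was the most even across the fractions. Its own probe read 7.57 in CD133-positive against 7.60 in CD133-negative cells and 7.50 in ALDH-positive against 7.46 in ALDH-negative cells, a range of 0.14 over the 4 arrays. The differences were -0.03 and 0.04, smaller than those of 89.3% and 90.7% of the genes above the floor. The sign of the CD133 difference is not settled, since it turned to 0.01, 0.02 and 0.03 when the pair was centred, after a second quantile normalization and after loess. A second probe that the annotation shares between NOTCH2 and its partial human copies NOTCH2NLA and NOTCH2NLB was not used for NOTCH2. It read 5.47, 5.83, 5.84 and 6.17 in the same order and differed by -0.36 and -0.33, so it was lower in both positive fractions.

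NOTCH1 stood at 6.06 in CD133-positive against 6.26 in CD133-negative cells and 6.07 in ALDH-positive against 5.84 in ALDH-negative cells. The CD133-negative array was the highest and the ALDH-negative array the lowest, and both positive fractions lay between them. Its differences of -0.20 and 0.23 had opposite signs and were met or exceeded in size by 42.5% and 49.4% of genes. NOTCH3, a receptor best known from vascular smooth muscle, stood at 5.99, 5.83, 6.35 and 6.01 in the same order. It was higher in both positive fractions, by 0.17 and 0.34, and the ALDH-positive array was the highest.

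RBPJ, the DNA-binding factor on which signals from all Notch receptors converge, stood at 7.97 in CD133-positive against 7.87 in CD133-negative cells and 7.55 in ALDH-positive against 8.17 in ALDH-negative cells. The ALDH fractions formed the 2 ends of the order, with both CD133 arrays between them. The difference of -0.62 in the ALDH sort is a 1.54-fold lower level in ALDH-positive cells, and 9.23% of genes differed by as much. It slipped below 1.5-fold after a second quantile normalization (-0.57) and after loess (-0.57). In the CD133 sort RBPJ differed by 0.10.

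A second probe annotated to RBPJ went the other way. It read 5.42, 5.79, 5.86 and 5.27 in the order given above and differed by -0.36 and 0.59. The annotation lists 1 accession for this probe and 8 for the brighter one, on which the RBPJ values above rest. Which RNA the dimmer probe reads was not tested, and the mean of both probes differed by -0.13 and -0.01. The direction of RBPJ in the ALDH sort therefore holds for 1 of its 2 probes.

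**Figure D2:**
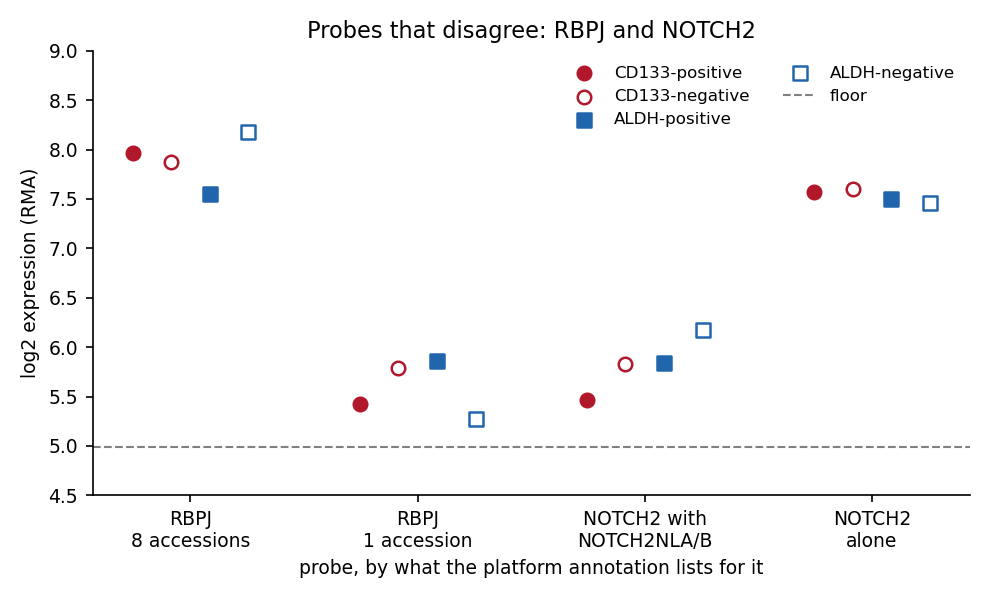
Log2 expression (RMA) on the 4 arrays for the RBPJ and NOTCH2 probes, named by the number of accessions or the genes that the platform annotation lists, with symbols as for the 10 genes by array. The RBPJ probe with 8 accessions is lowest in ALDH-positive cells at 7.55, where the RBPJ probe with 1 accession is highest at 5.86.

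Among the targets, HES1 and NRARP were higher in ALDH-positive cells while HEY1 was lower. HES1, a repressor that is a direct target of Notch in many tissues, stood at 8.48 in CD133-positive against 8.38 in CD133-negative cells and 8.98 in ALDH-positive against 8.58 in ALDH-negative cells. Both ALDH arrays lay above both CD133 arrays. Its differences were 0.10 for CD133 and 0.40 for ALDH, a 1.32-fold higher level in ALDH-positive cells, and 25.3% of genes differed by as much in the ALDH sort. NRARP, a feedback inhibitor that binds the Notch transcription complex, stood at 6.32, 6.15, 6.62 and 6.25 in the same order. It was higher in both positive fractions, by 0.16 and 0.37, and 28.8% of genes matched the second of these in size.

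HEY1, a repressor related to HES1 and also a Notch target, stood at 6.74 in CD133-positive against 6.65 in CD133-negative cells and 6.41 in ALDH-positive against 7.14 in ALDH-negative cells. As for RBPJ, the ALDH-negative array was the highest and the ALDH-positive array the lowest. The difference of -0.72 is a 1.65-fold lower level in ALDH-positive cells, the largest of any Notch gene in either sort, and 5.64% of genes differed by as much. It stayed past 1.5-fold when the pair was centred (-0.71), after a second quantile normalization (-0.67) and after loess (-0.67). In the CD133 sort HEY1 differed by 0.08, which 73.2% of genes matched or exceeded. HES1 and HEY1 thus differed in opposite directions between the same 2 arrays, and with 1 array per fraction that contrast was not tested.

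**Figure D3:**
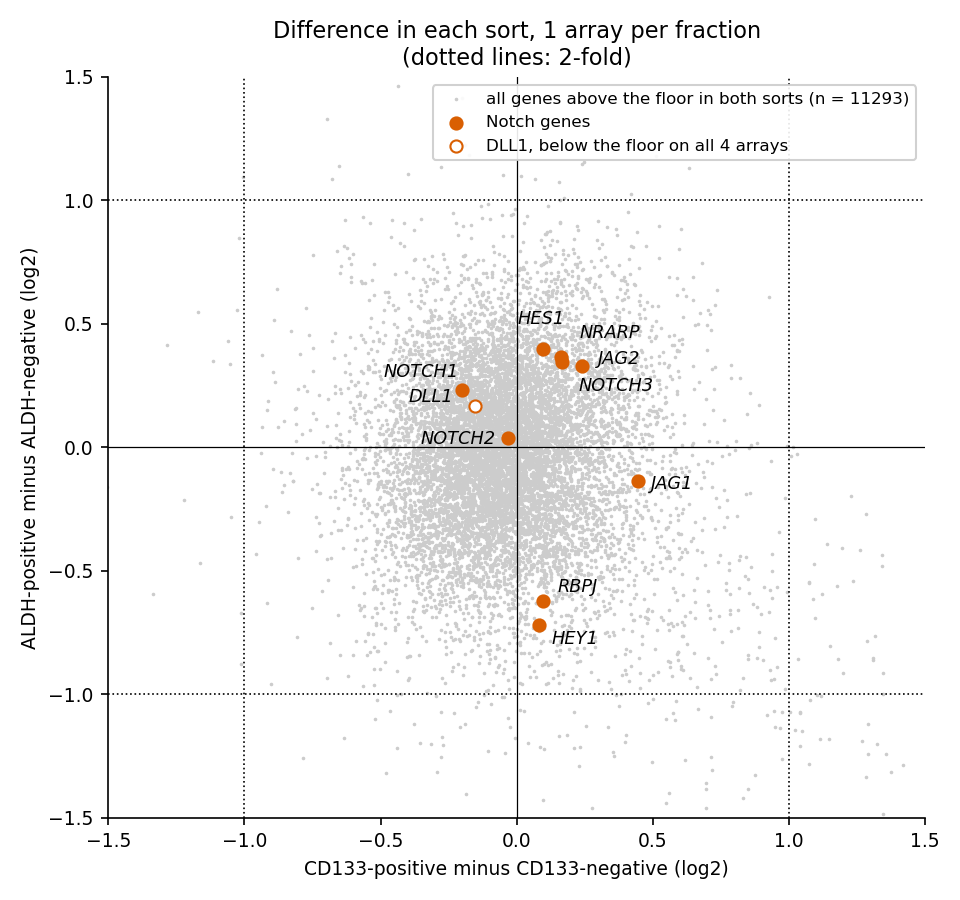
Positive minus negative fraction (log2) in the CD133 sort on the x axis and the ALDH sort on the y axis for the 10 Notch genes, over the 11293 genes above the floor in both sorts in grey; 39 of the grey genes lie outside the axes and dotted lines mark 2-fold. All Notch genes lie inside 2-fold, with JAG1 farthest along the x axis at 0.45 and HEY1 and RBPJ farthest down the y axis at -0.72 and -0.62.

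Across the 2 sorts, JAG2, NOTCH3, HES1 and NRARP were higher in both positive fractions, and the other 6 genes differed in opposite directions. Over all 18377 genes 28.2% were higher in both and 46.4% differed in opposite directions, so these counts are near the background. The count of 6 was 5 after each of the 3 rescalings, which turned NOTCH2 in the CD133 sort, and 5 with the mean of the RBPJ probes. For JAG2, NOTCH3 and HES1 both ALDH arrays lay above both CD133 arrays, as they did for 15.1% of the 12177 genes above the floor on at least 1 array. For NOTCH2 both ALDH arrays lay below both CD133 arrays, as for 30.2% of those genes. How the preparation of the 2 sorts differed is not given in the sources used here, so a difference between sorts cannot be told apart from one between preparations.

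The wider HES and HEY families were read from the pathway lists, with several members named after their values were seen. In the ALDH sort the repressor HEY2 stood at 4.79 in ALDH-positive against 5.43 in ALDH-negative cells, a difference of -0.64 like that of HEY1. The lower of these values was below the floor, and set against the floor the difference was -0.45. HEYL differed by 0.04. Of the 7 HES genes, 6 had the higher value in ALDH-positive cells, beside 53.8% of all genes. HES7 differed by 0.27, HES6 by 0.24, HES2 by 0.16 and HES4 by 0.14, besides HES1 and the dim HES3. HES5 differed by -0.01 and turned positive with all 3 rescalings. HES3 was below the floor on all 4 arrays.

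Between the CD133 fractions 6 of 7 HES genes, the dim HES3 among them, were higher in the positive fraction as well, beside 49% of all genes. HES7 and HES5 differed by 0.34 each and HES2 by -0.25. HEY2 differed by -0.24 and HEYL by -0.25, opposite in sign to HEY1. No HES or HEY gene other than HEY1 and HEY2 passed 1.5-fold in either sort.

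**Figure D4:**
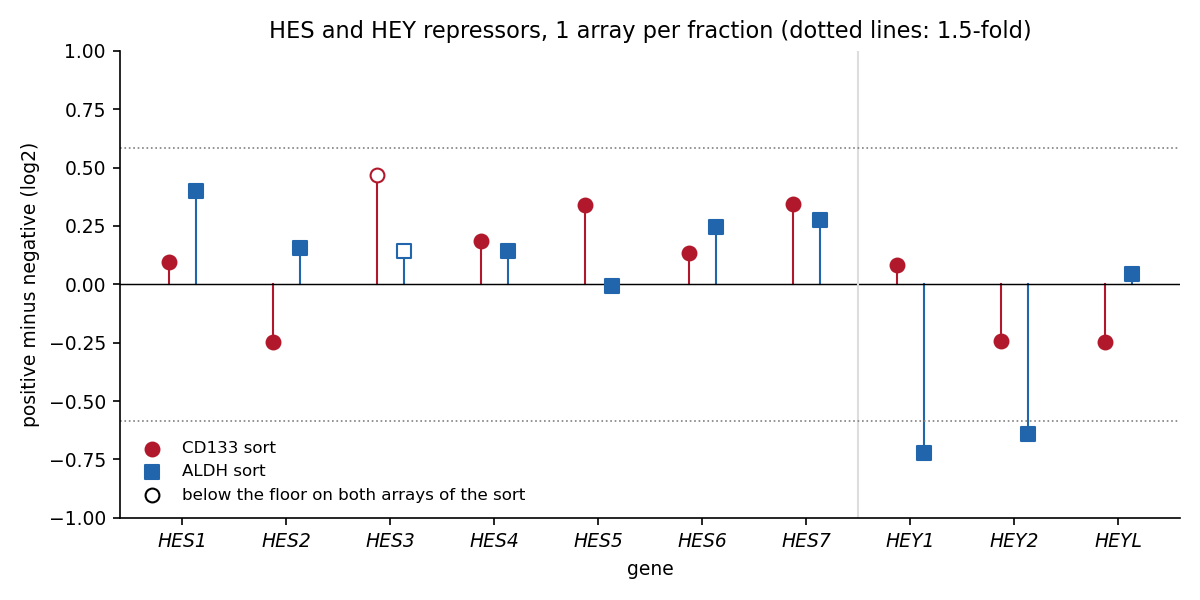
Positive minus negative fraction (log2) of the HES and HEY repressor genes, circles for the CD133 sort and squares for the ALDH sort, open where both arrays of the sort lay below the floor, with dotted lines at 1.5-fold. HEY1 at -0.72 and HEY2 at -0.64 pass the lower line in the ALDH sort, and the HES genes lie between -0.25 and 0.47.

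The remaining pathway genes were taken from 7 lists by role, of which 81 of 88 genes were measured. In each sort 1 of these 81 was past 2-fold and above the floor: the biliary keratin KRT19 at 1.34 between the CD133 fractions and the tight junction protein CLDN4 at -1.08 in the ALDH sort. Both are lineage genes and not parts of the signalling pathway. At 1.5-fold, of 65 genes above the floor in each sort, 3 were called between the CD133 fractions and 5 between the ALDH fractions, beside the 4.63% and 10.8% of genes above the floor.

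Of the 8 other receptor and ligand genes, 4 were above the floor for CD133 and 5 for ALDH, and none passed 1.5-fold there. NOTCH4, the receptor known from endothelium, was near the floor and higher by 0.32 and 0.33 in the 2 positive fractions. DLK1, a delta-like protein of fetal liver that lacks the receptor-activating domain of the canonical ligands, stood at 5.16 in CD133-positive and 5.73 in CD133-negative cells, a difference of -0.56. In the ALDH sort it differed by 0.04. MFAP2, a microfibril protein listed for its reported binding to Notch, differed by 0.33 and -0.39, and DLL4, the endothelial delta-like ligand, by -0.12 in the ALDH sort.

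The genes that modify and cut the receptor differed little. Of 5 glycosylation genes, 3 were above the floor, and POFUT1, which adds the first fucose, differed by 0.05 and -0.07. POGLUT1 differed by 0.11 and -0.16, the latter only -0.01 against the floor, and the fringe enzyme RFNG by -0.18 and -0.09. Of 8 measured cleavage genes, 6 were lower in the positive fraction of the CD133 sort and 5 in that of the ALDH sort, none past 1.5-fold. The other 2 and 3 were higher, where 49% and 53.8% of all genes were. The convertase FURIN, which makes the first cut, differed by -0.19 and 0.42. The sheddase ADAM10 differed by -0.07 and -0.16, and ADAM17 by -0.09 and -0.19. Among gamma-secretase subunits, NCSTN differed by 0.01 and -0.11, PSENEN by 0.18 and -0.08, APH1A by -0.22 and 0.04, and APH1B by -0.19 and -0.35.

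Of 15 genes of ubiquitination, endocytosis and trafficking, 9 were higher in CD133-positive and 6 in ALDH-positive cells, where 49% and 53.8% of all genes were. None of those above the floor passed 1.5-fold. MIB1, the ligase that lets ligand-bearing cells pull on the receptor, stood at 6.53 in ALDH-positive against 7.02 in ALDH-negative cells, a difference of -0.49. NEDD4 differed by -0.46 and NEURL1 by 0.39 in the ALDH sort, and the dynamin DNM1 by 0.48 in the CD133 sort.

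Of 20 measured nuclear cofactor genes, 13 were lower in the positive fraction of each sort, though not the same 13, with medians of -0.11 and -0.05. The other 7 were higher, where 49% and 53.8% of all genes were in the CD133 and ALDH sorts. FBXW7, the ligase subunit that marks the Notch intracellular domain for destruction, differed by -0.32 and -0.51. The acetyltransferase gene EP300 differed by -0.32 in the CD133 sort, where the corepressor SPEN differed by -0.33, and CREBBP differed by -0.47 in the ALDH sort. The corepressor CTBP2 alone passed 1.5-fold, at 0.75 in the ALDH sort, with 4.69 in ALDH-negative cells below the floor; set against the floor the difference was 0.46.

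Of 17 other HES, HEY and direct target genes, 11 were higher in the positive fraction of each sort, though not the same 11. Of all genes 49% and 53.8% were higher in the CD133 and ALDH sorts. The medians over the 17 were 0.18 and 0.14, beside -0.01 and 0.03 over all genes. Above the floor 8 of 13 were higher in each sort, with medians of 0.13 and 0.14. CDKN1A, which encodes the cell cycle inhibitor p21 and also answers to p53, differed most. It stood at 6.42 in CD133-positive against 5.64 in CD133-negative cells and 6.14 in ALDH-positive against 6.88 in ALDH-negative cells. Its differences of 0.79 and -0.74 passed 1.5-fold in opposite directions. ID1 differed by -0.40 in the ALDH sort. Cell division genes differed upwards in the ALDH sort for 17 of 20 members, beside 53.8% of all genes, with a median of 0.54. Their part in the values of HEY1, RBPJ, HES1 and CDKN1A was not tested.

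Of the 10 biliary lineage genes 8 were measured, and 5 of these were above the floor. SOX9, a biliary and progenitor factor known as a Notch target in liver, differed by 0.14 and 0.28. KRT19 stood at 8.20 in CD133-positive against 6.85 in CD133-negative cells and 7.78 in ALDH-positive against 8.22 in ALDH-negative cells, differences of 1.34 and -0.44. CLDN4 differed by 0.92, or 0.76 against the floor, and by -1.08. The secreted protein SPP1 differed by 0.56 and -0.66. ONECUT1, a factor of liver and bile duct development, went the reverse way, at -0.44 and 0.32. KRT19, CLDN4 and SPP1 are expressed in other epithelia too. The intestinal genes differed upwards for 15 of 15 members in the CD133 sort, where 49% of all genes did. In the ALDH sort 12 of 15 differed downwards, where 53.8% of all genes were higher. Above the floor these counts were 12 of 12 and 11 of 11. The part of the intestinal genes in the values of the biliary genes was not tested.

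**Figure D5:**
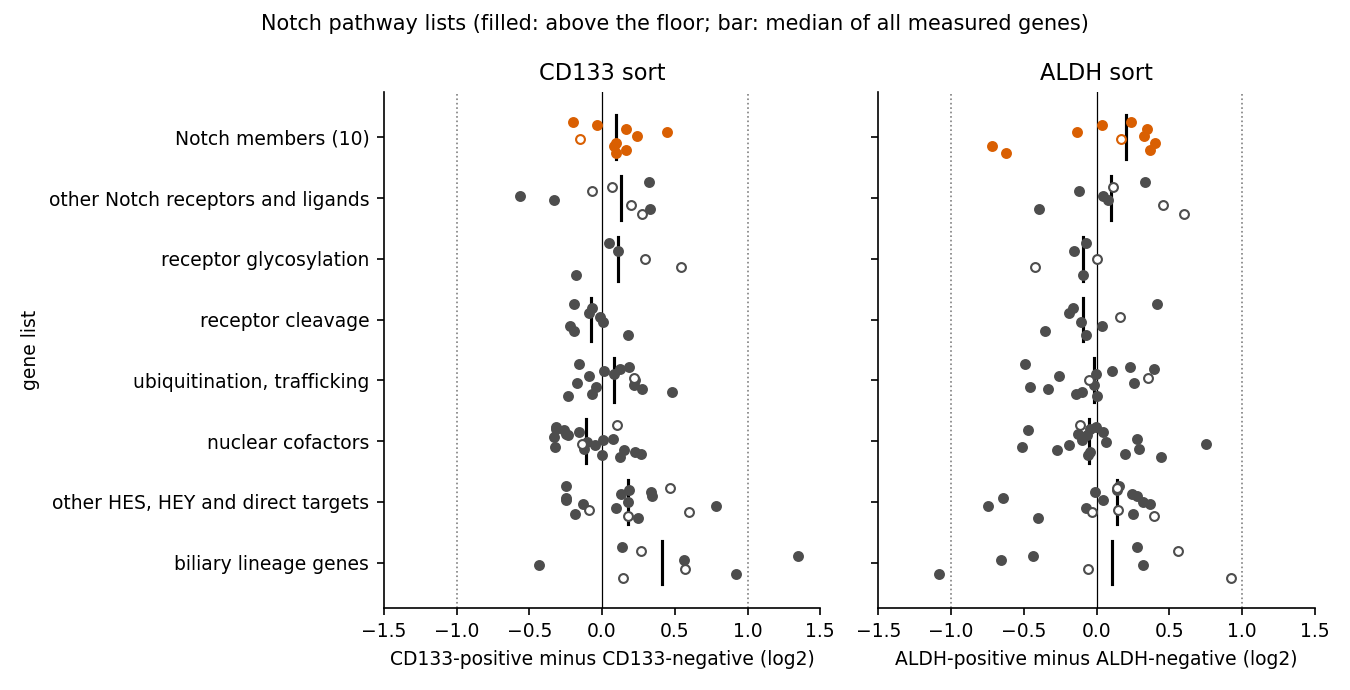
Positive minus negative fraction (log2) for the 10 Notch genes in orange and the genes of the 7 other pathway lists in grey, in the CD133 sort (left) and the ALDH sort (right); filled points are above the floor, bars are medians of all measured genes of a list, dotted lines mark 2-fold. The points past 2-fold are KRT19 at 1.34 on the left and CLDN4 at -1.08 on the right, both biliary lineage genes.

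For the 3 Notch genes with the largest differences, the genes nearest in profile were sought among 10251 other genes above the floor on all 4 arrays, by the Euclidean distance of the 4 values after each gene's mean was subtracted. Nearest to HEY1 were GIPC2 (distance 0.045), CTSO (0.053) and CYP2J2 (0.067), which differed by -0.69, -0.69 and -0.74 in the ALDH sort and by 0.03, 0.03 and 0.02 between the CD133 fractions. Nearest to RBPJ were SNX9 (0.05), ADD3 (0.051) and NAIP (0.053), with -0.55, -0.55 and -0.63 in the ALDH sort. Nearest to JAG1 were NOCT (0.044), SNX21 (0.048) and DNM1P46 (0.052), with 0.49, 0.43 and 0.38 in the CD133 sort. A likeness over 4 arrays describes these arrays only.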

How the data were processed

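RNA of 4 sorted Huh7 fractions was labelled with biotin and measured on 1 Affymetrix array each. The authors deposited log2 expression values made with RMA, as the submitters' processing notes name it; that the scale is log2 follows from the values, which run from 0.556 to 13.5. Software, version and genome build are not given in the sources used here. RMA gives all arrays nearly the same distribution and so hides any change common to most genes.

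Of 28869 probes, 19310 had exactly 1 symbol in the platform annotation, 1752 had several and 7807 were unnamed. A gene took its probe with the highest mean, which gave 18377 genes; 9 of the 10 Notch genes had 1 such probe. Differences were positive minus negative within a sort, counted at 2-fold and, as an alternative, 1.5-fold, with no test. Named beside the 10 genes were up to 3 genes per list and sort with the largest difference above the floor, cleavage genes, and the 3 genes nearest in profile to each of 3 Notch genes. AFP, PTPRC, NKG7, SOX9, ONECUT1 and HES and HEY genes outside that rule were chosen after their values were seen. PROM1, ALDH1A1, ALDH1A3 and ALDH2 were named as checks of the sorts. The members and lists were chosen with earlier results of these data known. The calculation was tested on simulated data with known changes. Alternatives were other floors, other probe choices, centring, a second quantile normalization and loess with a span of 0.4. Python 3.11.15, pandas 2.3.3, statsmodels 0.14.6 and matplotlib 3.10.9 were used.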

Additional observations from a re-analysis of the deposited data

Results flagged for a closer look

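Of the 10 Notch genes, 6 differed in opposite directions in the 2 sorts, as did 46.4% of all 18377 genes by any amount. From the other pathway lists, CLDN4 and CDKN1A did so past 1.5-fold in both. How many of all genes reverse past 1.5-fold was not counted, so these 2 have no background to be set against. The count of 6 is 5 after each of the 3 rescalings, with the mean of the RBPJ probes or with values raised to the floor. With 1 array per fraction this difference between the sorts was not tested. The difference in the ALDH sort minus that in the CD133 sort was -0.80 for HEY1, -0.72 for RBPJ (from its brighter probe), -0.58 for JAG1, 0.43 for NOTCH1, 0.32 for DLL1 (below the floor on all 4 arrays) and 0.0699 for NOTCH2, whose sign in the CD133 sort is not settled. It was -2.00 for CLDN4 and -1.53 for CDKN1A.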

How the results depend on the processing

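No Notch gene reached 2-fold under any of the floor, probe or normalization alternatives. With 1.5-fold in place of 2-fold, 2 Notch genes were counted in place of 0 in the ALDH sort, and 3 and 5 other pathway genes in place of 1 and 1 in the CD133 and ALDH sorts. With the floor at the 75th percentile the median of the Notch genes in the ALDH sort, over the 6 above it, turned to -0.049, beside -0.051 over all genes above that floor; the dimmer NOTCH1, NOTCH3 and JAG2 left the list. With the mean over its probes RBPJ differed by -0.13 in the CD133 sort, and its dimmer probe gave -0.36 and, in the ALDH sort, 0.59. Of 60 differences of the Notch genes under the 3 rescalings (centring, a second quantile normalization, loess), 57 kept their direction and 59 moved by under 0.1; the 3 that turned were those of NOTCH2 in the CD133 sort. Probe choice can move RBPJ only, and raising values to the floor DLL1 only, which is 0 in both sorts when values are raised to the floor. No paired analysis was possible because each fraction has 1 array and no value comes from a test. Signal near the floor limits JAG2, DLL1, HEY2, NOTCH4 and POGLUT1.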
